A study of Mus musculus with 20 samples.

Results

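The interferon regulatory factors are a family of transcription factors that share one DNA-binding domain, and 8 of their genes (Irf1, Irf2, Irf3, Irf4, Irf5, Irf7, Irf8 and Irf9) were followed here in the distal colon (DC). Each was taken as the row of the deposited count table whose Ensembl identifier carries that symbol in the GENCODE mouse annotation, which gave 8 of the 26619 rows of the table, and all 8 passed the filter on low counts. C57BL/6 mice went at weaning (3 to 4 weeks of age) onto the Total Western Diet (TWD), which mimics what people in the United States eat, stayed on it for 6 weeks, and then received the TWD with resistant potato starch (RPS) at 0, 2, 5 or 10% of the diet for a further 3 weeks. There were 5 mice per diet and one stranded poly(A) library per mouse. RPS, which the sample labels call raw potato starch, escapes digestion in the small bowel and is fermented in the large bowel. All 4 groups shared the strain and the TWD, and the samples were whole segments cut near the anal end of the colon.

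Interferon regulatory factors bind GAAA-rich elements in the promoters of interferon genes and of the genes that interferons induce. Irf1 is switched on by interferon-gamma and drives antigen presentation genes, whereas Irf2 occupies the same elements and dampens them. Irf3, Irf5 and Irf7 are activated by phosphorylation when nucleic acid or microbial sensors fire, Irf9 is part of the complex ISGF3 that answers type I and type III interferons, and Irf4 and Irf8 direct the development of lymphoid and myeloid cells. In the gut wall these genes are used by epithelial cells as well as by leukocytes. In a whole tissue segment, fewer cells of a type and less RNA per cell cannot be told apart.

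The total count per library ran from 18429493 to 34974230, and the shallowest library at 0% RPS (31254832 counts) was deeper than the deepest of the RPS libraries (31126954 counts), so depth and RPS feeding cannot be told apart by group. Groups were taken from the description label. In 3 mice the labels disagree, since the treatment label puts mouse RS10_717 of the 5% group at 2% RPS, RS10_725 of the 10% group at 5%, and RS10_748 of the 2% group at 10%. Where leaving out these 3 mice changed a call of a member or a relation of one with a marker list, the value without them is given below. Summed epithelium markers (13 of 13 tested, such as Epcam and Car1) lay between 20118 and 28774 CPM (counts in proportion to the scaled library size) in every library. Mouse RS10_721 at 5% RPS held 6068 CPM of 10 summed pancreas markers. The other 19 mice held 367 to 862 CPM, the 862 CPM in mouse RS10_784 at 10% RPS. Cela1 led this sum (mean 514 CPM, Pnlip next at 60.2), so it does not show pancreas RNA in every library. Only 4 of the 10 markers were tested, among them Pnlip (log2 change 6.78 ± 3.19 at 10% RPS, edgeR adjusted p = 0.328). Mouse RS10_784 was also the highest in Irf1 (246 CPM), and the Irf1 call given below was lost without it. Whether pancreas RNA bears on Irf1 in that mouse was not tested.

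The promoters of Irf1, Irf2, Irf7 and Irf8 are shown because of the values of their genes given below. Irf1 was called at 10% RPS, and Irf7 was not called there but its slope stood just inside the threshold. The Irf8 values at 10% and 0% RPS did not overlap but were close, and Irf2 had a negative fold at every RPS level. Each stretch lies within the 250 bases before the start of the canonical transcript in GRCm39, without bases annotated as untranslated region, and capitals mark the gamma-activated site (GAS) TTCNNNGAA, the core of the interferon-stimulated response element (ISRE) GAAANNGAA or the consensus of NF-kappaB.

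Irf1, chr11:53660591-53660811, plus strand: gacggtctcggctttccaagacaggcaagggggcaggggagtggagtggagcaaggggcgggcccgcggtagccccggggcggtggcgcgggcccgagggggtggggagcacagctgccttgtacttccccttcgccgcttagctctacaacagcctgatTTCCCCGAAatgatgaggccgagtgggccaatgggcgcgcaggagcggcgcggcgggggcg

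Irf2, chr8:47192510-47192749, plus strand: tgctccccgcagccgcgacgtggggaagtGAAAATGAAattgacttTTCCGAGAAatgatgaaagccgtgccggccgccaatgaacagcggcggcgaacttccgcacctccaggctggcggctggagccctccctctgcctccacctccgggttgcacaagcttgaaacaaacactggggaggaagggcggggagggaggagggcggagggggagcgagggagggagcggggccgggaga

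Irf7, chr7:140846399-140846648, minus strand: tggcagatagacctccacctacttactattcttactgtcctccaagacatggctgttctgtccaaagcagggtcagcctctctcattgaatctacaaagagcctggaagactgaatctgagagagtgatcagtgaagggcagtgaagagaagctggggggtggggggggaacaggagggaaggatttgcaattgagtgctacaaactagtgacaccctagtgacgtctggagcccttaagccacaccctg

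Irf8, chr8:121462847-121463095, plus strand: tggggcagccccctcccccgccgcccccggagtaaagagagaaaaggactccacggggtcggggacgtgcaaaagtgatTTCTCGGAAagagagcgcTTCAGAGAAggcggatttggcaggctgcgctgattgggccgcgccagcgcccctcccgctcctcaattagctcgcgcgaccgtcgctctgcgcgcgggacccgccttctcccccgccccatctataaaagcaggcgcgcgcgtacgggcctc

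Both strands of the full 250 bases were searched before all 17835 protein-coding genes of the table for which the window could be read. A GAS was found before 3 of the 8 genes, Irf1 (90 to 82 bases before the start), Irf2 (204 to 196 bases) and Irf8 (at 171 to 163 and at 153 to 145 bases), and before 6.93% of all genes. The ISRE core was found before Irf2 alone among the 8 (221 to 213 bases before the start) and before 7.23% of all genes. The NF-kappaB consensus was found before Irf1 (13 to 4 bases, as GGGGAATCCC) and before Irf3 (236 to 227 bases, as GGGAGACCCC), and before 8.33% of all genes. The Irf1 match lies in bases left out above because a longer transcript carries them as untranslated region. None of these matches overlapped another motif, and the windows of Irf4, Irf5, Irf7 and Irf9 held none of the 3 sequences. All 250 bases of the Irf9 window are annotated as untranslated region and lie within the annotated Irf9 gene, so they do not show what stands before that gene. In the Irf5 window 72 of the 250 bases are annotated as untranslated region. The matches named here are of letters and do not show binding.

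How much of each factor the DC transcribes was compared per kilobase of merged exon length, the scale on which different genes can be compared. Irf1 was the most abundant at 34.9 ± 7.38 CPM per kb (SD, n = 20 mice), followed by Irf3 at 25.5 ± 1.85, Irf2 at 13.7 ± 2.30, Irf7 at 13.4 ± 2.03, Irf9 at 6.04 ± 0.993, Irf8 at 5.79 ± 0.786, Irf5 at 1.51 ± 0.236 and Irf4 at 1.34 ± 0.441 CPM per kb. The paired difference between neighbours in this order passed a permutation test at 5 of 7 steps, for example 0.42 ± 0.33 on the log2 scale between Irf1 and Irf3, with Irf1 higher in 19 of 20 mice (permutation test over mice, two-sided, p = 4e-05, adjusted p = 7e-05). On this scale the difference between Irf2 and Irf7 did not pass (0.03 ± 0.36, 10 of 20 mice, permutation p = 0.753, adjusted p = 0.753), and neither did that between Irf9 and Irf8 (0.06 ± 0.25, 10 of 20 mice, permutation p = 0.331, adjusted p = 0.386). The means of Irf2 and Irf7 changed places between diets, from 15.3 ± 1.52 and 12.1 ± 1.84 CPM per kb at 0% RPS to 12.8 ± 1.42 and 15.7 ± 1.38 at 10% RPS. The last step, from Irf5 to Irf4, passed but was smaller than its SD, at 0.25 ± 0.44 with Irf5 higher in 12 of 20 mice (permutation p = 0.0191, adjusted p = 0.0268). Here too the means changed places, from 1.44 ± 0.306 for Irf5 and 1.01 ± 0.585 for Irf4 at 0% RPS to 1.57 ± 0.19 and 1.77 ± 0.262 at 10% RPS. The levels depended on the length used. Per kilobase of the longest transcript, Irf1 had 52.5 ± 11.1, Irf3 39.9 ± 2.89, Irf2 32.8 ± 5.5 and Irf7 15.7 ± 2.36 CPM per kb over the 20 mice, so that Irf2 and Irf7, close together on average per merged exon length, stood apart. Irf8 (10.0 ± 1.36) and Irf9 (9.06 ± 1.49) changed places, and the other ranks stayed. In raw reads the genes ranged from 69 to 309 counts per library for Irf4 to 3483 to 6279 for Irf1, so relative counting error was larger for Irf4.

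**Figure D1:**
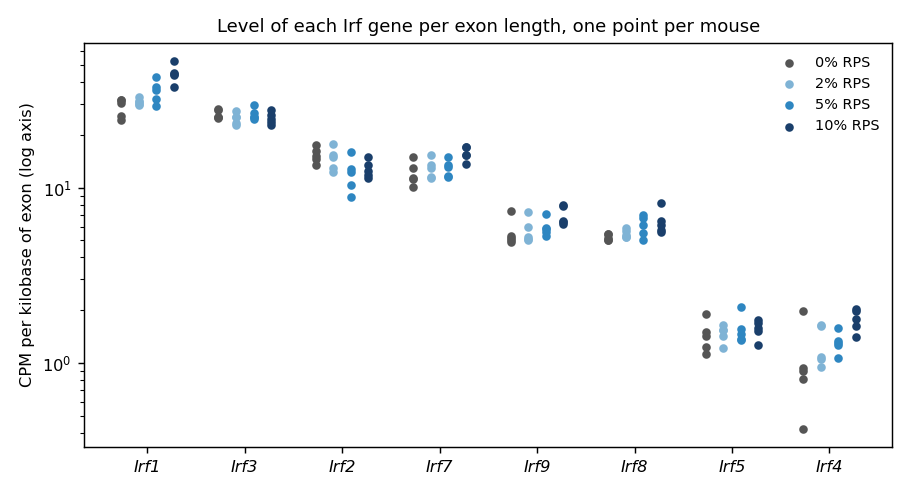
Level of the 8 Irf genes in CPM per kilobase of merged exon (log axis), one point per mouse and one colour per diet, with genes ordered by their mean over 20 mice. Irf1 leads at 34.9 CPM per kb on average and lies above its own 0% RPS values in every mouse at 10% RPS, while Irf5 and Irf4 lie lowest at 1.51 and 1.34 CPM per kb.

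Irf1 (ENSMUSG00000018899, GRCm39 chromosome 11, 53660812 to 53669200, plus strand, protein coding) was the member that changed most firmly with RPS. The 5 mice at 0% RPS held 113, 120.1, 141, 147 and 148 CPM of Irf1. At 2% RPS the values were 138, 140.1, 145, 145 and 153 CPM, and at 5% RPS they were 136, 149, 169, 174 and 199.5 CPM. At 10% RPS they were 175, 205, 206, 212 and 246 CPM. Every mouse at 10% RPS lay above every mouse at 0% and at 2% RPS, 4 of 5 lay above the highest mouse at 5% RPS, and 4 of 5 mice at 5% RPS lay above the highest at 0% RPS. Full separation of this kind, in the higher direction, was seen for 1.13% of all tested genes at 10% against 0% RPS and for 0.995% at 10% against 2% RPS.

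The group means of Irf1 were 134 ± 16.2 CPM at 0% RPS, 144 ± 5.88 at 2%, 166 ± 24.4 at 5% and 209 ± 25.4 at 10% (SD, n = 5 mice each), a ratio of means of 1.56 between 10% and 0% RPS. In the edgeR quasi-likelihood fit over all genes, with p-values adjusted over 17893 tested genes, Irf1 rose at 10% RPS by 0.64 ± 0.10 on the log2 scale (SE, adjusted p = 0.00929), and ranked 4 of 17893 by p. Calls required both an adjusted p no higher than 0.05 and a change of 1.5-fold or more. Irf1 was the only one of the 8 genes called at 10% against 0% RPS, where 0.0391% of all tested genes were called, and DESeq2, which called 0.811% of its genes, likewise called 1 member, Irf1 (0.65 ± 0.11, adjusted p = 4.39e-06). By unadjusted p under 0.05 there were 5 members, Irf1, Irf4, Irf7, Irf8 and Irf9, all higher, where 15.2% of all genes passed in either direction and 7.32% in the higher.

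At 5% RPS the fitted change of Irf1 was 0.31 ± 0.10 (edgeR adjusted p = 0.358) and at 2% RPS 0.10 ± 0.10 (edgeR adjusted p = 1). Neither edgeR nor DESeq2 called any member at 5% or 2% RPS, where edgeR called 0% of all genes and DESeq2 0.12% and 0.00386%. By unadjusted p under 0.05 there were 3 members at 5% RPS (Irf1, Irf2 and Irf8), against 9.19% of all genes, and 0 at 2% RPS, against 1.41%. Between 10% and 2% RPS the change of Irf1 was 0.53 ± 0.10 (edgeR adjusted p = 0.0564), a contrast in which edgeR called 0.0224% of all genes and no member, and 4 members (Irf1, Irf7, Irf8 and Irf9) had an unadjusted p under 0.05, against 12.4%. DESeq2 called 0.309% of all genes there and no member, with Irf1 under the fold threshold (0.55 ± 0.11, adjusted p = 0.000665). Without mouse RS10_731, the lowest at 10% RPS, edgeR called Irf1 in this contrast (0.59, adjusted p = 0.041). Between 10% and 5% RPS and between 5% and 2% RPS, edgeR called 0% and DESeq2 0.00386% of all genes and neither called a member, while 2 members (Irf1 and Irf7, against 5.82%) and 1 member (Irf2, against 6.53%) had an unadjusted p under 0.05.

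A slope over RPS percent used all 20 mice. Irf1 rose by 0.065 ± 0.009 log2 units per percent RPS (edgeR adjusted p = 0.00067), rank 4 of 17893, and Irf7 rose by 0.036 ± 0.010 (edgeR adjusted p = 0.0489), so that 2 of the 8 genes passed the trend test against 2.1% of all tested genes. The Irf7 slope stood just inside the threshold and passed in 10 of 33 alternative settings, and of the 20 mice left out in turn only RS10_703, RS10_712, RS10_718, RS10_721 and RS10_727 could be missed without losing it (adjusted p up to 0.119 otherwise). Without the 3 mice with disagreeing labels it was 0.034 (edgeR adjusted p = 0.12). Among the 33 settings, the one without a fold threshold is the main fit itself, since slopes had no such threshold. The removal of mouse RS10_721 is entered more than once. Slopes of the other genes that did not pass were 0.073 ± 0.024 for Irf4 (edgeR adjusted p = 0.0986), 0.030 ± 0.009 for Irf8 (0.0687), 0.033 ± 0.011 for Irf9 (0.104) and -0.028 ± 0.012 for Irf2 (0.214). DESeq2 passed 4 of the 8 in this test, Irf1, Irf4, Irf7 and Irf8, against 3.81% of all genes. Irf1 was also the only member with any difference among the 4 diets (edgeR adjusted p = 0.0254), a test passed by 0.0727% of all genes, and again the only one with DESeq2, which passed 1.35%. That edgeR call was lost without the 3 mice with disagreeing labels together, and without each of mice RS10_707, RS10_708, RS10_709, RS10_748, RS10_725, RS10_729 and RS10_784. Without the 3 mice, and without RS10_725, RS10_729 or RS10_784, 0 of all tested genes passed.

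The Irf1 call depended on the labels of the 3 mice named above. With the treatment label the change of Irf1 at 10% RPS was 0.53 (edgeR adjusted p = 0.372), and without the 3 mice it was 0.64 (edgeR adjusted p = 0.0728). In both settings 0 of all tested genes were called. The Irf1 call was kept in 28 of 34 alternative settings with values from 0.53 to 0.70, and the other losses came with only 10% and 0% RPS in the fit (0.64, adjusted p = 0.055), with the epithelium marker sum as a covariate (0.62, adjusted p = 0.143), with the B cell marker sum as a covariate (0.58, adjusted p = 0.0463, fold under the threshold) and without mouse RS10_784, the highest at 10% RPS (0.57, adjusted p = 0.0341, fold under the threshold). The slope passed in 32 of 33 settings and was lost with the treatment label (0.052, adjusted p = 0.166), where 0 of all tested genes passed. Both counts of settings enter the removal of mouse RS10_721 more than once, and that of the slope includes the main fit. Irf1 shares 1467 exon bases with Gm17334 and 619 with Gm12216, both on the other strand. The libraries were stranded, but whether counting used the strand is not stated. Gm12216 held 8.19 ± 1.54 CPM at 0% and 12.4 ± 2.02 at 10% RPS, and Gm17334 3.72 ± 0.884 and 5.44 ± 1.03 CPM.

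**Figure D2:**
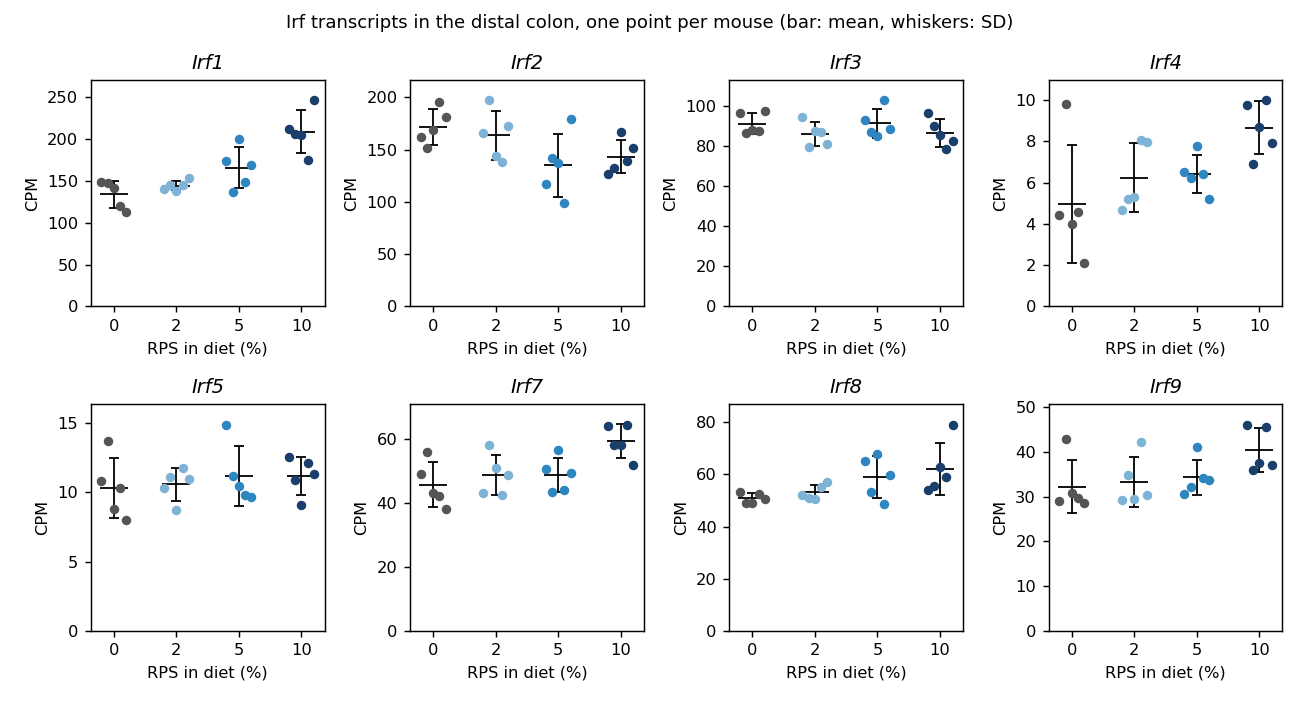
CPM of each Irf gene by RPS percent in the diet, one point per mouse, with the mean as a bar and the SD as whiskers (n = 5 mice per diet). The 5 mice at 10% RPS lie at 175 to 246 CPM of Irf1 and those at 0% RPS at 113 to 148 CPM, whereas the Irf3 and Irf5 values overlap in every diet.

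Irf2 (ENSMUSG00000031627, chromosome 8, 47192222 to 47300501, plus strand), the counterpart that competes with Irf1 for its sites, did not pass the test in any contrast and had a negative fold at every RPS level. The mice at 0% RPS held 151, 162, 169, 181 and 195 CPM and those at 2% RPS 138, 144, 166, 172 and 197 CPM. At 5% RPS the values were 98.6, 117, 137, 142 and 179 CPM, and at 10% RPS they were 127, 132, 139, 151 and 167 CPM. Of the 5 mice, 4 lay below the lowest mouse at 0% RPS at 5% RPS and again at 10% RPS, the closest of them level with it to the nearest CPM, and 1 lay within its range. The fitted change was -0.35 ± 0.13 at 5% RPS (edgeR adjusted p = 0.403) and -0.26 ± 0.13 at 10% RPS (edgeR adjusted p = 0.337).

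Whether Irf1 changed by a different amount from each relative was tested on the ratio of the pair within a mouse, in which the scaling of the libraries cancels. The number of Irf1 reads per Irf2 read was 0.914, 0.975, 0.838, 0.617 and 0.625 in the 5 mice at 0% RPS and 0.842, 0.735, 0.959, 1.05 and 0.891 at 2% RPS. It was 1.5, 0.957, 1.46, 1.51 and 0.944 at 5% RPS and 1.66, 1.56, 1.23, 1.26 and 1.63 at 10% RPS. Irf2 reads outnumbered Irf1 reads in all 5 mice at 0% RPS and in none of the 5 at 10% RPS, with the mice at 5% RPS split between 2 near 1 and 3 at 1.46 or more. Reads do not allow for length, and Irf2 has 11179 bases of merged exon where Irf1 has 4678. Per kilobase of merged exon the ratio ran from 1.47 to 2.33 at 0% RPS and from 2.93 to 3.97 at 10% RPS. On that length Irf1 stood above Irf2 in every mouse of every diet.

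On the log2 scale the Irf1 to Irf2 ratio was higher at 10% than at 0% RPS by 0.90 (95% interval 0.47 to 1.37, 5 of 5 mice above every 0% RPS mouse, exact permutation p = 0.00794, the smallest that 5 against 5 mice can give, adjusted p = 0.0667 over 21 ratios). The ratio to Irf3 was higher by 0.72 (interval 0.45 to 1.03, exact permutation p = 0.00794, adjusted p = 0.0667), that to Irf5 by 0.50 (0.08 to 0.87, exact p = 0.0159, adjusted p = 0.0667) and that to Irf8 by 0.36 (0.08 to 0.65, exact p = 0.0159, adjusted p = 0.0667). Intervals that held 0 were those for Irf7 (0.26, from -0.06 to 0.58, exact p = 0.0952, adjusted p = 0.241), Irf9 (0.30, from -0.09 to 0.72, exact p = 0.103, adjusted p = 0.241) and Irf4 (-0.31, from -1.08 to 0.44, exact p = 0.381, adjusted p = 0.5). None of the 21 ratio comparisons passed after adjustment. With a smallest exact p of 0.00794, a single fully separated ratio could not have passed on its own, so this does not decide any one ratio. At 5% RPS the Irf1 to Irf2 ratio was higher by 0.67 (exact permutation p = 0.0238, adjusted p = 0.0833, the interval starting at 0.08), and the Irf1 to Irf7 ratio by 0.20 (interval 0.07 to 0.34, exact permutation p = 0.0159, adjusted p = 0.0667). The Irf1 result was known when its relatives were chosen, so these ratios are no independent evidence on Irf1.

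**Figure D3:**
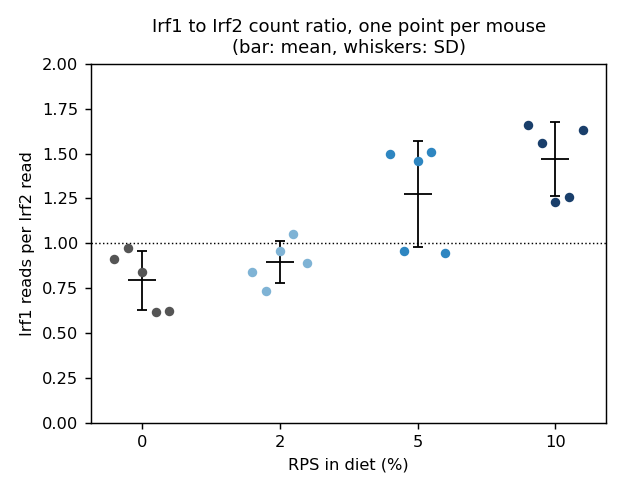
Irf1 reads per Irf2 read in each mouse by RPS percent, with the mean as a bar and the SD as whiskers (n = 5 mice per diet) and a dotted line at 1. All mice at 0% RPS lie below 1 and all at 10% RPS at 1.23 or more. The line marks equal reads and not equal levels, since the genes differ in length. Per kilobase of merged exon every mouse has a ratio of 1.47 or more.

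Among the factors that sensors activate, Irf7 had the larger fitted change and Irf3 and Irf5 stayed within their spread. Irf7 (ENSMUSG00000025498, chromosome 7, 140842619 to 140846398, minus strand), which amplifies the type I interferon response and is itself induced by interferon, held 38.2, 42.4, 43.1, 49.3 and 56.1 CPM at 0% RPS. At 10% RPS it held 51.9, 58.1, 58.3, 64.3 and 64.6 CPM, so that 4 of 5 mice exceeded the highest at 0% RPS. Values at 2% RPS (42.7 to 58.2 CPM) and 5% RPS (43.4 to 56.7 CPM) overlapped those at 0% RPS, with 1 mouse of each above the highest. The fitted change at 10% RPS was 0.38 ± 0.10 (edgeR adjusted p = 0.103, and with DESeq2 0.39 ± 0.11, adjusted p = 0.0327, under the fold threshold).

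Irf3 (ENSMUSG00000003184, chromosome 7, 44647033 to 44652272, plus strand), which is present before any stimulus and is activated by Tbk1, was the steadiest of the 8 genes, with 78.6 to 103 CPM over the 20 mice and a coefficient of variation of 7.24%. Its change at 10% RPS was -0.07 ± 0.07 (edgeR adjusted p = 0.658). Irf5 (ENSMUSG00000029771, chromosome 6, 29526276 to 29541870, plus strand), which acts downstream of Toll-like receptors in myeloid and B cells, ranged from 8.02 to 14.9 CPM and differed by 0.12 ± 0.14 at 10% RPS (edgeR adjusted p = 0.74). The highest Irf5 value belonged to mouse RS10_717 at 5% RPS. Irf5 shares 416 exon bases with Tnpo3 on the other strand, and Irf3 shares 123 with Bcl2l12.

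Irf9 (ENSMUSG00000002325, chromosome 14, 55841028 to 55847812, plus strand), the DNA-binding subunit of ISGF3, had a positive but uncalled change. It held 28.6, 29.1, 29.8, 30.8 and 42.8 CPM at 0% RPS and 36.0, 37.0, 37.5, 45.6 and 46.1 CPM at 10% RPS. The highest value at 0% RPS came from mouse RS10_703, and the 10% RPS values all lay above the other 4. Irf9 ran from 29.2 to 42.3 CPM at 2% RPS and from 30.7 to 41.0 CPM at 5% RPS. The fitted change at 10% RPS was 0.33 ± 0.12 (edgeR adjusted p = 0.205) and, without mouse RS10_703, 0.46 (edgeR adjusted p = 0.049, under the fold threshold). Irf9 shares 282 exon bases with Rnf31 on the same strand, whose level was 42.4 ± 4.54 CPM at 0% and 44.2 ± 3.76 CPM at 10% RPS.

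Irf4 and Irf8 direct blood cell fates. Irf4 (ENSMUSG00000021356, chromosome 13, 30933209 to 30950959, plus strand), which is required for plasma cells, held 2.08, 3.98, 4.42, 4.58 and 9.78 CPM at 0% RPS and 6.91, 7.92, 8.70, 9.77 and 9.98 CPM at 10% RPS. The 9.78 CPM came from mouse RS10_703, and apart from that mouse the groups did not overlap. Values at 2% RPS ran from 4.66 to 8.08 CPM and at 5% RPS from 5.22 to 7.78 CPM. The fitted change at 10% RPS, 0.80 ± 0.27, was larger than that of Irf1 but not called (edgeR adjusted p = 0.164). Without mouse RS10_703 it was 1.21 and called (edgeR adjusted p = 0.0202), in a fit that called 63 genes higher and 46 lower in all. No other left-out mouse gave a call.

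Irf8 (ENSMUSG00000041515, chromosome 8, 121463096 to 121485659, plus strand), a factor of macrophages, dendritic cells and B cells, held 49.0, 49.2, 50.4, 52.6 and 53.2 CPM at 0% RPS and 54.0, 55.4, 59.2, 63.0 and 79.1 CPM at 10% RPS. Irf8 was the second member, beside Irf1, whose values at 10% and 0% RPS did not overlap, with 53.2 CPM in the highest mouse at 0% and 54.0 CPM in the lowest at 10% RPS. The latter was mouse RS10_725, which the treatment label puts at 5% RPS. Such separation in the higher direction was seen for 1.13% of all tested genes. At 2% RPS Irf8 ran from 50.5 to 57.2 CPM. At 5% RPS it ran from 48.6 to 68.0 CPM, with 4 of 5 mice above the highest at 0% RPS and 1 below the lowest. The fitted change was 0.29 ± 0.10 at 10% RPS (edgeR adjusted p = 0.158) and 0.21 ± 0.10 at 5% RPS (edgeR adjusted p = 0.515).

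**Figure D4:**
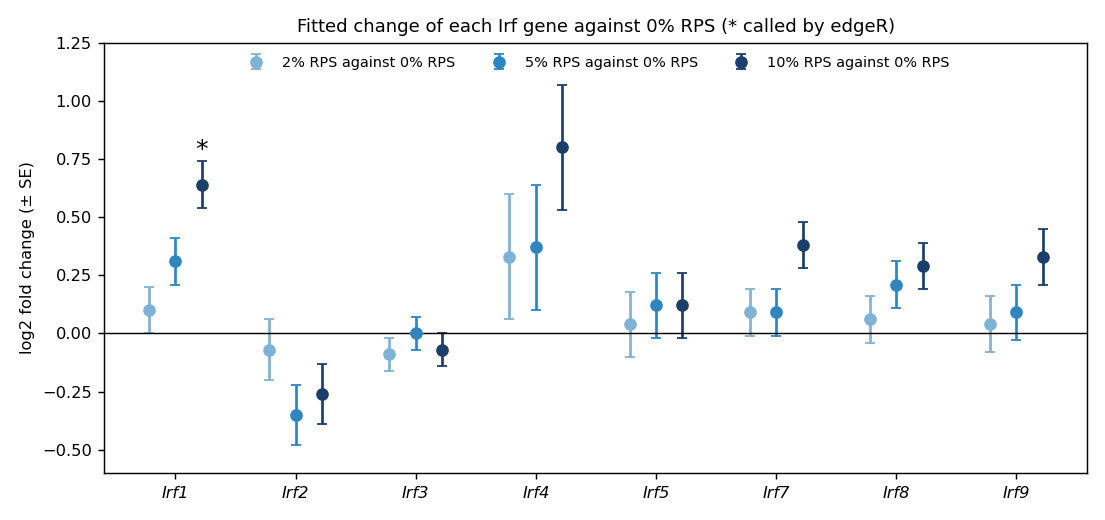
Fitted log2 fold change of each Irf gene at 2, 5 and 10% RPS against 0% RPS, with its SE as whiskers and an asterisk on the 1 call by edgeR. Irf1 at 10% RPS stands at 0.64 with a short whisker, Irf4 at 0.80 with a long one, and Irf2 lies below 0 at every level.

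How the factors varied among mice on one diet was examined on deviations of log2 CPM from the diet mean (20 mice). Of 28 pairs of members, 0 passed a permutation test after adjustment, and 4 had an unadjusted p under 0.05 by Pearson's r or Spearman's rho. The largest value was that of Irf4 and Irf9 (r = 0.70, permutation p = 0.00253, adjusted p = 0.0708 and rho = 0.65, permutation p = 0.00811, adjusted p = 0.123, r = 0.61 without the 2 mice farthest from the median). Irf1 went most closely with Irf8 (r = 0.61, permutation p = 0.0223, adjusted p = 0.209 and rho = 0.58, permutation p = 0.0151, adjusted p = 0.141, r = 0.51 without 2 mice). For Irf1 and Irf2 the values were close to 0 (r = 0.00, permutation p = 0.999, adjusted p = 0.999 and rho = -0.09, permutation p = 0.748, adjusted p = 0.758).

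The same deviations were set against the summed CPM of markers of 7 cell types, 56 relations in all, of which 7 passed after adjustment by both r and rho. Irf4 went with T cell markers (r = 0.83, permutation p = 5e-05, adjusted p = 0.0028 and rho = 0.87, permutation p = 8e-05, adjusted p = 0.00448, r = 0.83 without 2 mice), with B cell markers (r = 0.79, permutation p = 0.00316, adjusted p = 0.0253 and rho = 0.72, permutation p = 0.00257, adjusted p = 0.024, r = 0.59 without 2 mice) and with plasma cell markers (r = 0.78, permutation p = 0.0008, adjusted p = 0.0112 and rho = 0.73, permutation p = 0.00141, adjusted p = 0.0197, r = 0.63 without 2 mice). Irf5 went with T cell markers (r = 0.72, permutation p = 0.00043, adjusted p = 0.00803 and rho = 0.75, permutation p = 0.00075, adjusted p = 0.0147, r = 0.75 without 2 mice) and with B cell markers (r = 0.71, permutation p = 0.00214, adjusted p = 0.02 and rho = 0.73, permutation p = 0.00079, adjusted p = 0.0147, r = 0.70 without 2 mice). Irf9 went with T cell markers (r = 0.72, permutation p = 0.00175, adjusted p = 0.0196 and rho = 0.73, permutation p = 0.00195, adjusted p = 0.0218, r = 0.55 without 2 mice). Irf2 went against plasma cell markers (r = -0.67, permutation p = 0.00041, adjusted p = 0.00803 and rho = -0.68, permutation p = 0.00332, adjusted p = 0.0266, r = -0.67 without 2 mice). The plasma cell sum was led by Jchain (mean 298 CPM), Txndc5 (234), Xbp1 (221) and Sdc1 (200.4), with Mzb1 at 0.438 and Tnfrsf17 at 1.35 CPM. Which cells these transcripts came from was not measured. Without mouse RS10_703 the relations of Irf4 with plasma cell markers (r = 0.60, adjusted p = 0.0579) and of Irf9 with T cell markers (r = 0.62, adjusted p = 0.113) no longer passed, and the latter was also lost without RS10_719 (r = 0.72, adjusted p = 0.0504). That of Irf4 with B cell markers was lost without RS10_708 (r = 0.61, adjusted p = 0.11), RS10_716, RS10_719 or RS10_731, and that of Irf5 with B cell markers without RS10_701 (r = 0.71, adjusted p = 0.0567). Without the 3 mice with disagreeing labels, Irf5 with B cell markers (r = 0.74, adjusted p = 0.114) and Irf9 with T cell markers (r = 0.72, adjusted p = 0.0576) did not pass. All adjusted p-values in these relations come from permutation tests.

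Irf1, Irf7 and Irf8 passed with none of the 7 lists, and Irf3 passed by rho alone against B cell markers (rho = -0.63, permutation p = 0.00477, adjusted p = 0.0334, r = -0.51, permutation p = 0.00944, adjusted p = 0.0661, r = -0.59 without 2 mice). For Irf1 the relation was r = 0.08 with epithelium markers (permutation p = 0.784, adjusted p = 0.928 and rho = 0.11, permutation p = 0.695, adjusted p = 0.87, r = 0.12 without 2 mice) and r = 0.39 with B cell markers (permutation p = 0.108, adjusted p = 0.432 and rho = 0.40, permutation p = 0.0912, adjusted p = 0.315, r = 0.43 without 2 mice). Irf8 had r = 0.15 with macrophage markers (permutation p = 0.421, adjusted p = 0.785 and rho = 0.14, permutation p = 0.573, adjusted p = 0.87, r = 0.03 without 2 mice).

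**Figure D5:**
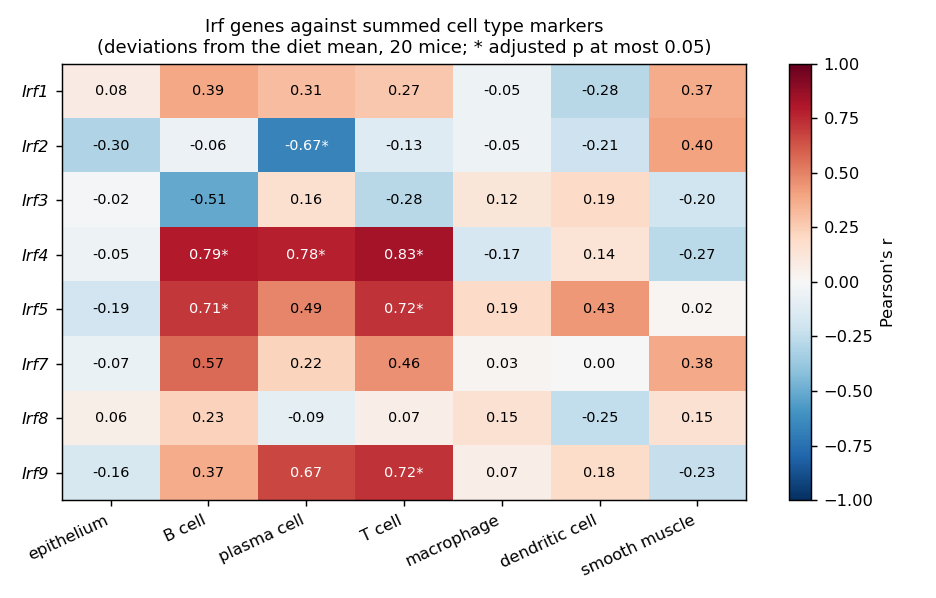
Pearson's r between each Irf gene and the summed markers of 7 cell types, over the deviations of 20 mice from their diet means, with an asterisk where the adjusted permutation p is at most 0.05. The row of Irf4 holds r of 0.79, 0.78 and 0.83 for B, plasma and T cells, and the row of Irf1 holds no asterisk.

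The marker sums themselves were compared between diets. All 10 plasma cell markers were tested and had a positive fold at 10% RPS, none at 0 in all libraries, and their sum ran from 647 to 1329.9 CPM at 0% RPS (the latter in mouse RS10_703, at most 808 in the others) and from 1046 to 1448 CPM at 10% RPS, a difference of 0.52 on the log2 scale (exact permutation p = 0.0397, adjusted p = 0.476 over 24 comparisons). The sum of 10 B cell markers ran from 21.2 to 155 CPM at 0% and from 102 to 190.0 CPM at 10% RPS (0.64, exact permutation p = 0.31, adjusted p = 0.825), with the 21.2 CPM in mouse RS10_708. The T cell sum ran from 15.2 to 31.9 CPM at 0% and from 18.6 to 31.0 CPM at 10% RPS. The epithelium sum differed by 0.17 at 10% RPS (exact permutation p = 0.0952, adjusted p = 0.643), and the sum of 10 macrophage markers by -0.41 at 5% RPS (exact permutation p = 0.0397, adjusted p = 0.476). None of the 24 comparisons of sums passed, and here too a single fully separated sum could not have passed on its own. Of single macrophage markers, 5 of 10 at 10% RPS and 7 of 10 at 5% RPS had an unadjusted p under 0.05 and all of these were lower, with 0 called by edgeR, where 15.2% and 9.19% of all genes had such a p in either direction. Of the 13 epithelium markers, 12 had a positive fold at 10% RPS and 0 were called by edgeR. An unadjusted p under 0.05 was reached by 3, all higher, where 7.32% of all genes passed in that direction. Among them Slc26a3 stood under the fold threshold (0.57 ± 0.10, edgeR adjusted p = 0.0155). In the trend test 2 of 10 plasma cell and 2 of 13 epithelium markers passed, none in the other lists, against 2.1% of all genes. With the B cell sum as a covariate the change of Irf4 at 10% RPS was 0.57 (edgeR adjusted p = 0.309), and with the epithelium sum 0.88 (edgeR adjusted p = 0.564). The part of the plasma and T cell sums in the values of Irf2, Irf4, Irf5 and Irf9, and of the macrophage sum in those of Irf8, was not tested.

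The pathway around the factors was read from lists of genes in the same fit. Of 21 listed interferon genes 3 had a row in the table (Ifnz, Ifng and Ifnl2), each at most 0.0904 CPM in any mouse and none tested. At 10% RPS edgeR called 0 of the 112 distinct pathway genes in 5 lists and DESeq2 called 10, beside 0.0391% and 0.811% of all genes. Among 16 interferon receptors and JAK-STAT genes the median change at 10% RPS was 0.06, against -0.0149 over all tested genes, and 4 had an unadjusted p under 0.05 in the higher direction, where 7.32% of all genes did. Stat2, the partner of Irf9, had 36.6 ± 4.66 CPM at 0% and 46.7 ± 8.04 CPM at 10% RPS (0.35 ± 0.12, edgeR adjusted p = 0.156).

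Among 26 sensors, adaptors and kinases upstream of Irf3, Irf5 and Irf7 the median change was 0.10 and 4 had an unadjusted p under 0.05, all higher, where 7.32% of all genes passed in that direction and 15.2% in either. The cytosolic DNA sensor Cgas had 3.11 ± 0.744 CPM at 0% and 5.30 ± 1.08 CPM at 10% RPS (0.77 ± 0.22, edgeR adjusted p = 0.113), and the kinase gene Chuk 70.8 ± 3.23 and 82.5 ± 3.82 CPM (0.22 ± 0.08, edgeR adjusted p = 0.203). Among 19 partner factors and corepressors the median was 0.07. Batf2, which pairs with Irf1, had 36.1 ± 2.22 CPM at 0% and 49.6 ± 5.51 CPM at 10% RPS (0.46 ± 0.14, edgeR adjusted p = 0.12), and the NF-kappaB subunit Relb had 72.8 ± 12.0 and 58.2 ± 5.42 CPM (-0.32 ± 0.10, edgeR adjusted p = 0.128).

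Target genes were taken from 2 lists. Of 24 Irf1 target genes, 21 had a positive fold at 10% RPS and the median was 0.30, against -0.0149 over all tested genes. In this list 10 had an unadjusted p under 0.05, all higher, where 7.32% of all genes passed in that direction and 15.2% in either. The chemokine Cxcl10 passed the trend test (edgeR adjusted p = 0.0335), with 0.942 ± 0.383 CPM at 0%, 1.90 ± 0.343 at 5% and 2.32 ± 1.09 at 10% RPS. Of 30 target genes of ISGF3, 28 had a positive fold at 10% RPS and the median was 0.30. An unadjusted p under 0.05 was reached by 15 in the higher direction, against 7.32% of all genes, and by 1 in the lower. Isg15, a ubiquitin-like modifier (3.22 ± 0.991 CPM at 0%, 6.50 ± 3.33 at 10%, trend edgeR adjusted p = 0.0434), Mx1, an antiviral GTPase (3.51 ± 1.09 and 8.03 ± 2.77 CPM, 0.0191), and Oas3, an oligoadenylate synthetase (1.57 ± 0.773 and 5.02 ± 2.66 CPM, 0.0241), passed the trend test, in which 1.15% of all genes passed in the higher direction. With the treatment label 0 of the 54 target genes passed the trend test, but so did 0 of all 17893 tested genes. With DESeq2 13 of the 54 passed, 1 of them (an ISGF3 target) in the lower direction, against 3.81% of all genes in either direction. The ISRE core stood before 46.7% of the 30 ISGF3 targets and before 29.2% of the 24 Irf1 targets, against 7.23% of all genes, and the GAS before 16.7% and 8.33%, against 6.93%.

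The genes most like Irf1 over the 20 mice, out of 15224 with a mean of at least 1 CPM, were Stom (r = 0.89), Casp4 (0.87), Nfkbiz (0.87), 4732471J01Rik (0.87) and Appl1 (0.86). The 20 points share the 4 diets. Casp4, a caspase that senses cytosolic lipopolysaccharide, went from 29.4 ± 6.50 CPM at 0% to 55.7 ± 9.59 at 10% RPS. Nfkbiz, a nuclear regulator of NF-kappaB, went from 44.2 ± 12.3 to 72.4 ± 11.3 CPM. Over deviations from the diet mean the closest genes to Irf1 were Muc13 and Zdhhc3 (both r = 0.84), and Muc13, a transmembrane mucin of the epithelium, held 2623 ± 555 CPM at 0% and 3425 ± 696 at 10% RPS.

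For the relatives the closest genes over the same deviations were others. Irf4 went with Pou2af1 (r = 0.96), a B lineage coactivator that is also one of the 10 plasma cell markers, and with the lymphocyte adaptor Lax1 (r = 0.95). Irf9 went with the interferon-induced Herc6 (r = 0.93). Irf2 went with Crebl2 (0.92) and Wnt8b (0.91), Irf5 with the leukocyte-rich Msn and Sash3 (both 0.86), Irf7 with Podnl1 (0.87) and Mir142hg (0.81), Irf8 with Slc5a9 (0.83) and Gm59337 (0.82), and Irf3 with Mapkapk5 (0.84) and Gtpbp4 (0.83). Each r is over 20 mice and describes these libraries only.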

How the data were processed

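RNA was measured in the DC of 20 mice, 5 on each of 4 diets. Reads were quality trimmed by the authors and mapped to GRCm39 (also named in the submitters' processing notes) in CLC Genomics Workbench, and the deposited values are raw read counts per gene and mouse, neither pooled nor normalised. Which annotation release was used, how multiply mapping reads were assigned and whether strand was used in counting are not given in the sources used here, which could move the counts of overlapping or similar genes. The members and gene lists were chosen with earlier results of these data known.

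Of 26619 identifiers, 26338 matched GENCODE vM39. Counts were analysed in R 4.3.3 with edgeR 4.0.16: filterByExpr (minimum count 10, which kept 17893 of 26004 genes with a count), TMM scaling, one robust quasi-likelihood fit over the 4 diets, and p-values adjusted by Benjamini-Hochberg across the tested genes. Calls needed an adjusted p no higher than 0.05 and a 1.5-fold change, except in the trend and any-diet tests, which had no fold threshold. DESeq2 1.42.0 and limma-voom (limma 3.58.1) were alternatives, as were other scalings, filters, labels, covariates and each mouse left out. CPM follow TMM scaling, with a prior count of 2 on the log2 scale. Ratios and marker sums of 5 against 5 mice were tested by two-sided exact permutation over 252 splits, and correlations by 100000 permutations within diets (10000 in the alternatives). The interval of a ratio difference holds the shifts that the exact test did not refuse.

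Named genes were the 8 members, the 5 genes most like Irf1, the 2 most like each member within diets, and from each pathway list those called or with a trend past the threshold, otherwise the 2 with the smallest p. Some genes that this rule names are not reported here. Promoter windows were read from GRCm39 by position. Each mouse is one animal and p-values measure the spread between animals.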

Additional observations from a re-analysis of the deposited data

Results flagged for a closer look

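Within each diet, the lowest or highest mouse was marked when its gap to the next mouse took more than 0.71 of the range of the 5 mice (Dixon's test), for the 8 genes and 7 marker sums. Of 60 groups tested, 5 were marked, where chance alone marks about 3. Irf9 stood at 42.8 CPM in mouse RS10_703 at 0% RPS, with the next mouse at 30.8 CPM. In the same mouse the plasma cell marker sum stood at 1329.9 CPM, with the next at 808 CPM. Irf5 stood at 14.9 CPM in mouse RS10_717 at 5% RPS, with the next at 11.2 CPM, and this is one of the mice whose labels disagree. The dendritic cell marker sum was 22.9 CPM in mouse RS10_704 at 0% RPS, under the next lowest at 33.3 CPM, and the smooth muscle marker sum was 6685 CPM in mouse RS10_721 at 5% RPS, under the next lowest at 10194 CPM. No member showed such a gap at 10% RPS.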

How the results depend on the processing

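The members called at 10% against 0% RPS numbered 1, where 7 of all 17893 tested genes were called. The count became 0 with the treatment label, without the 3 mice with disagreeing labels and with the epithelium marker sum as a covariate. In each of these settings 0 of all tested genes were called. It was also 0 with the B cell marker sum as a covariate, where 2 genes were called in all, and with only the 2 diets in the fit, where 3 were. Leaving out mice in turn gave 0 to 2 members. There were 2 without mouse RS10_703, where 63 genes were called higher and 46 lower in all. There were 0 without mouse RS10_784, where 5 genes were called in all. For 10% against 2% RPS leaving out mice gave 0 to 1 members (1 without mouse RS10_731, where 4 of all tested genes were called). The trend count of 2, where 2.1% of all genes passed, became 4 with DESeq2, where 3.81% did, and 0 with the treatment label, where 0 genes did. It became 1 with limma-voom (218 of all genes higher and 148 lower), with library size alone (171 and 394), without the filter on low counts (143 and 149) and without the robust option (222 and 182). It was also 1 without the 3 mice (47 and 9) and with the B cell (25 and 6) or epithelium sum (2 and 0) as a covariate. Over left-out mice it ranged from 1 to 4, with 4 without mouse RS10_703, where 412 genes passed higher and 346 lower. The any-diet count of 1, where 0.0727% of all genes passed, became 0 with the treatment label, removal of the 3 mice or either covariate, where 0 genes passed. It also became 0 with library size alone, where 3 genes passed, and ranged from 0 to 1 over left-out mice. The cause of these changes was not tested.

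Pairs of members that correlated numbered 0, then 1 with a prior count of 0.5, 9 with the treatment label and 0 to 3 over left-out mice (3 without mouse RS10_717). Relations with marker lists numbered 7, then 11 with the treatment label and 5 to 8 over left-out mice. With DESeq2 the called genes at 10% RPS became 1 of the sensors and kinases, 3 of the Irf1 targets and 6 of the ISGF3 targets, where 0.811% of all genes were called. Those with a trend became 3 of the receptors, 2 of the sensors and 3 of the Irf1 targets, all higher. They also became 10 of the ISGF3 targets (9 higher, 1 lower) and 2 of the partners (1 higher, 1 lower), where 3.81% of all genes passed in either direction. With the treatment label no Irf1 or ISGF3 target kept a trend (0 and 0), and 0 of all tested genes had one. Irf5 turned from 0.12 to -0.01 at 10% RPS with the B cell covariate, and its slope to -0.006 with the treatment label. No ratio of Irf1 to a relative and no marker sum passed after adjustment in any setting run. No paired analysis was possible because mouse numbers are unique to an animal. With 5 mice per diet the exact tests cannot fall below 0.00794, so a single comparison could not pass the adjustment over 21 ratios or 24 sums on its own.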
